A study of Tupaia belangeri chinensis with 12 samples.

Results

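Ligand-gated neurotransmitter receptors are ion channels that open when a transmitter binds, and each channel is built from subunits encoded by separate genes. The subunit genes were taken by symbol from the authors' deposited gene tables: GABR genes for GABA-A receptors, GLRA and GLRB for glycine receptors, GRIA, GRIK, GRIN and GRID genes for the AMPA, kainate, NMDA and delta classes of glutamate receptor, CHRN genes for nicotinic acetylcholine receptors, and P2RX genes for ATP-gated receptors. Symbols that the annotation marks as numbered copies (a name followed by "li" and a number) were excluded, which left out 13. The selection holds 64 of the 81414 gene IDs analysed. Of these, 34 passed the filter on low values and were tested, and the other 30 are described at the end. The symbol pattern also took in 1 gene whose product binds a receptor and is not a subunit.

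The libraries come from fetal cortex of the Chinese tree shrew (Tupaia belangeri chinensis), a small mammal closely related to primates, at embryonic day 37 per the labels (the table names read day 35). Frozen sections were Nissl-stained, each layer was cut out by laser capture, and poly(A) RNA was sequenced. There are 12 libraries, 3 from each of 4 layers: the cortical plate (CP), where postmitotic neurons settle, and the outer subventricular (OSVZ), inner subventricular (ISVZ) and ventricular zones (VZ), which hold the progenitors and are called the germinal layers below. The labels do not tie the libraries to animals, so the p-values measure the spread between these libraries, which may be technical.

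In the mature brain, GABA-A and glycine receptors pass chloride and mostly inhibit, while AMPA, kainate and NMDA receptors pass cations and excite. In the fetal brain of rodents, immature neurons hold much chloride, so GABA and glycine depolarise them, and progenitors of the ventricular zone respond to GABA and glutamate before synapses form. The subunit makeup of a receptor sets its transmitter affinity, its kinetics, its calcium permeability and whether it is anchored at synapses.

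Levels are given as FPKM (fragments per unit of gene length and of library size) after scaling by 1 factor per library, with means ± SD over the 3 libraries of a layer. Differences are log2 differences of scaled FPKM plus 1 ± SE, with Benjamini-Hochberg adjusted p-values from limma over 14101 genes and a threshold of 0.05. Adding 1 shrinks the differences of low genes. FPKM shows no read depth, but the authors' deposited bounds on each value give a sense of precision: the median half-width was 7.80% to 12.9% of the value per library over expressed genes, and among the tested subunits it ran from 4.75% for GRIA1 to 63.5% for GABRG3. Markers of cortical projection neurons and radial glia followed the layer labels. The summed level of 10 cortical projection neuron markers was 1291 to 1415 scaled FPKM in CP, 572 to 830 in OSVZ, 289.6 to 536 in ISVZ and 95.7 to 249 in VZ. The summed level of 8 radial glia markers was 26.9 to 46.3 in CP, 210.1 to 222 in OSVZ, 307 to 407 in ISVZ and 749 to 879.5 in VZ. Other lists were less clear. The 4 choroid plexus markers found summed to 556, 2664 and 37.0 in VZ 1, VZ 2 and VZ 3, and to 51.3 in ISVZ 2. The 5 meninges markers summed to 14.5 to 19.8 in CP, 2.28 to 2.50 in OSVZ, 1.48 to 2.31 in ISVZ and 3.22 to 8.74 in VZ. The 4 intermediate progenitor markers found summed to 88.3 to 150 in OSVZ, 76.8 to 184 in ISVZ and 98.7 to 186 in VZ. The part of these lists in the receptor values was not tested.

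The library OSVZ 3 stood apart from OSVZ 1 and OSVZ 2. Of the 34 tested subunits, 29 were highest in OSVZ 3 among the OSVZ libraries, and 12 were at 2 or more times the mean of OSVZ 1 and OSVZ 2. The shares of all tested genes with these patterns were not computed. The counts therefore do not show whether the receptor subunits differ from other genes in OSVZ 3. Its 5 Cajal-Retzius markers summed to 71.8 scaled FPKM, against 6.75 and 9.72 in OSVZ 1 and OSVZ 2. The 14 interneuron markers summed to 380 in OSVZ 3, against 145 and 283 in OSVZ 1 and OSVZ 2. SST, 1 of the 14, was at 152 scaled FPKM in OSVZ 3, against 18.6 and 48.6. Without SST, the other interneuron markers together were no higher in OSVZ 3 than in OSVZ 2. The projection neuron markers of OSVZ 3 summed to 572, against 830 and 713. Without OSVZ 3 the OSVZ mean moved by more than 1.5 times for 8 subunits, and among these it became 10.3 scaled FPKM for GABRA3, 0.382 for GABRB1, 3.05 for GABRG1, 0.484 for GABRG3, 5.77 for GRIN1 and 3.59 for GRIN3A. The part of these markers in the receptor values was not tested. The calls for the subunits were repeated without OSVZ 3, while some OSVZ means are given only with it.

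CP stood above the mean of the germinal layers in most receptor families and below it in 3 genes. Against OSVZ alone, 10 of the 34 tested subunits were higher in CP (13.7% of all tested genes). Of the 34 tested subunits, 20 were higher in CP than in the mean of OSVZ, ISVZ and VZ, 3 were lower and 11 did not pass, where 24.0% of all tested genes were higher and 28.7% lower (52.7% in either direction). The median difference over the 34 subunits was 0.74, beside -0.05 over all tested genes. The 20 higher in CP belong to the GABA-A, glycine, AMPA, NMDA, delta and nicotinic families, the 3 lower are GABRA2, P2RX4 and P2RX1, and no kainate subunit passed. Leaving out OSVZ 3 kept all 23 calls. In dissected tissue, fewer cells of a type and less RNA per cell cannot be told apart, and the part of the projection neuron markers in these differences was not tested.

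**Figure D1:**
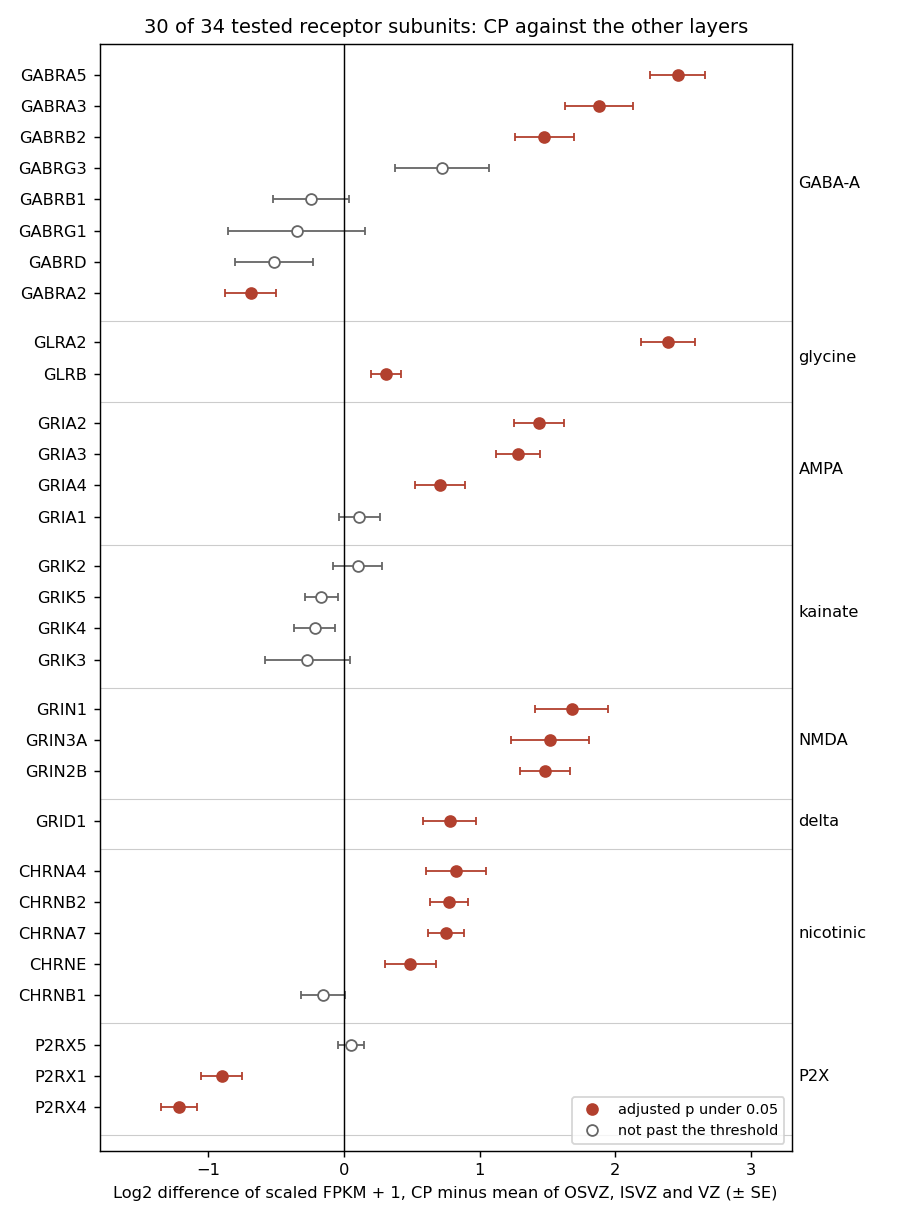
Log2 difference of scaled FPKM plus 1 between CP and the mean of OSVZ, ISVZ and VZ (x axis) for 30 of the 34 tested subunits (rows), grouped by receptor family. Points are the fitted differences, bars are ± SE, and filled points passed the threshold of 0.05. GABRA5 lies far to the right at 2.46 and P2RX4 farthest to the left at -1.21, and the 4 kainate subunits lie between -0.27 and 0.10.

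GABA-A receptors combine α, β and γ or other subunits, and every common receptor needs a β subunit to form a channel. The β subunit GABRB2 was higher in CP. It was at 20.8, 14.2 and 20.6 scaled FPKM in the CP libraries, 6.4, 6.01 and 14.4 in OSVZ, 5.05, 4.78 and 3.96 in ISVZ, and 5.71, 6.02 and 4.55 in VZ. OSVZ 3 reached the lowest CP library, the other germinal libraries lay together well below CP, and the difference was 1.48 ± 0.22 (adjusted p = 0.000171). GABRB1 stayed low in every layer, with 0.594 ± 0.0423 scaled FPKM in CP, 1.12 ± 1.28 in OSVZ, 0.793 ± 0.503 in ISVZ and 1.04 ± 0.346 in VZ, and its difference of -0.24 ± 0.28 (adjusted p = 0.496) did not pass.

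Among the α subunits, which set the receptor's affinity and drug response, GABRA3 and GABRA5 were higher in CP and GABRA2 was lower. GABRA5, whose receptors lie largely outside synapses in rodents, was at 14.6, 10.9 and 12.9 scaled FPKM in the CP libraries, 7.21, 3.47 and 7.42 in OSVZ, 1.16, 0.624 and 0.667 in ISVZ, and 0.232, 0.0521 and 0.588 in VZ. The layers did not overlap, VZ libraries were near 0, and the difference was 2.46 ± 0.20 (adjusted p = 2.41e-06). GABRA3, abundant in the embryonic rodent brain, was at 30.8, 23.4 and 28.5 scaled FPKM in the CP libraries, 10.7, 9.94 and 27.2 in OSVZ, 7.45, 6.39 and 4.53 in ISVZ, and 3.84, 2.65 and 3.44 in VZ. OSVZ 3 lay among the CP libraries while the other 8 germinal libraries lay below them all, and the difference was 1.88 ± 0.25 (adjusted p = 9.16e-05).

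GABRA2, the other α subunit prominent in the embryonic rodent brain, had its highest values in VZ. It was at 11, 13.3 and 6.45 scaled FPKM in the CP libraries, 15.9, 11.9 and 17 in OSVZ, 18.9, 14.7 and 12.8 in ISVZ, and 20.6, 21.6 and 17.2 in VZ. CP overlapped OSVZ and ISVZ but lay below every VZ library. The difference between CP and the germinal layers was -0.69 ± 0.19 (adjusted p = 0.00968), and without CP 3, the lowest library, it was -0.41 (adjusted p = 0.0635) and did not pass.

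The makeup of the α group by summed level is given as a description with no test. GABRA2 made up 16.6 ± 6.68% of the summed α subunit FPKM in CP, 38.4 ± 8.16% in OSVZ, 64.9 ± 1.64% in ISVZ and 81.9 ± 4.67% in VZ (SD, n = 3 each). GABRA3 made up 43.9 ± 1.99% in CP, 37.1 ± 8.67% in OSVZ, 25.5 ± 1.96% in ISVZ and 13.8 ± 2.71% in VZ. In CP no single α subunit held most of the sum, while in VZ GABRA2 did in all 3 libraries.

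GABRG1, GABRG3 and GABRD did not pass between CP and the germinal layers. GABRG1, a γ subunit with a more restricted distribution in the rodent brain, was at 5.87, 5.12 and 2.71 scaled FPKM in the CP libraries, 3.1, 3.0 and 22.8 in OSVZ, 3.6, 10.5 and 5.39 in ISVZ, and 7.16, 6.61 and 3.09 in VZ. OSVZ 3 was far above the other 11 libraries, the OSVZ mean was 9.62 with it and 3.05 without it, and the difference of -0.35 ± 0.50 (adjusted p = 0.586) did not pass. GABRG3 likewise had 1 high OSVZ library, with 2.09, 1.85 and 0.828 scaled FPKM in the CP libraries, 0.54, 0.428 and 4.59 in OSVZ, 0.322, 0.426 and 0.145 in ISVZ, and 0.138, 0.207 and 0.261 in VZ, and a difference of 0.72 ± 0.35 (adjusted p = 0.103). GABRD, a subunit of receptors outside synapses, averaged 0.307 ± 0.216 scaled FPKM in CP, 0.305 ± 0.0512 in OSVZ, 1.49 ± 1.25 in ISVZ and 1.24 ± 0.621 in VZ. Its difference was -0.52 ± 0.29 (adjusted p = 0.154), and without ISVZ 1 it was -0.67 (adjusted p = 0.0150) and passed.

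**Figure D2:**
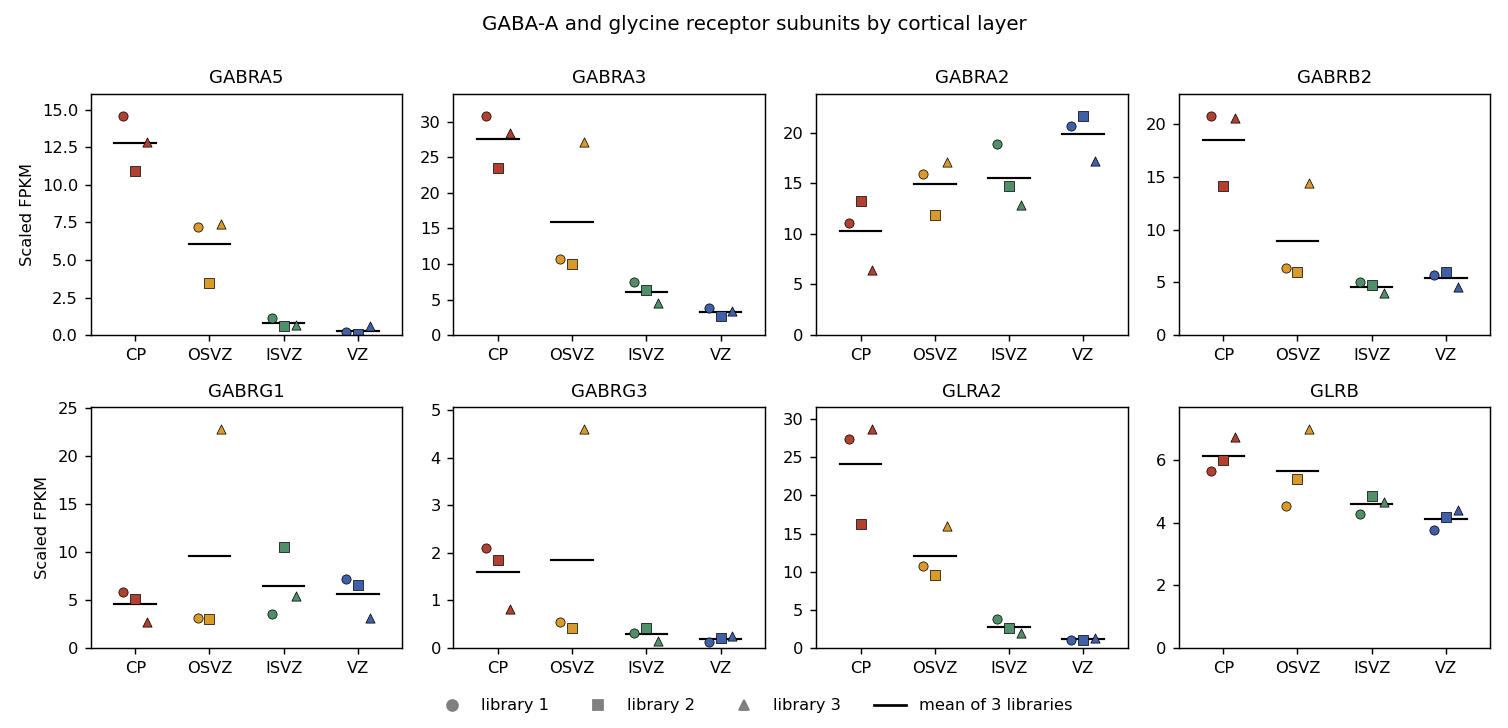
Scaled FPKM (y axis, linear from 0, a scale of its own in each panel) of 6 GABA-A and both tested glycine receptor subunits in the 12 libraries, by layer (x axis). Each symbol is 1 library, its shape gives the library number, and the bar is the mean of 3 libraries. GABRA5 steps down over the 4 layers without overlap, GABRA2 is highest in VZ, and the triangle of OSVZ 3 stands high for GABRG1 at 22.8 and GABRG3 at 4.59.

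On chromosome 21 of the deposited coordinates, whose genome build is not given in the sources used here, the GABA-A subunit genes GABRG1 (32366806 to 32469218), GABRA2 (32598321 to 32774102), GABRA4 and GABRB1 (33421232 to 33908926) are neighbours. Of the 3 that were tested, GABRA2 was lower in CP and GABRG1 and GABRB1 did not pass. This is a description with no test.

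Glycine receptors combine α subunits with GLRB, the β subunit that binds the synaptic scaffold gephyrin. GLRA2, the α subunit of fetal glycine receptors in rodents, was at 27.4, 16.3 and 28.7 scaled FPKM in the CP libraries, 10.7, 9.64 and 16 in OSVZ, 3.76, 2.66 and 1.93 in ISVZ, and 1.03, 1.09 and 1.31 in VZ. The layers did not overlap, although OSVZ 3 came close to the lowest CP library, and the difference was 2.39 ± 0.20 (adjusted p = 2.78e-06). GLRB was at 5.63, 5.99 and 6.74 scaled FPKM in the CP libraries, 4.54, 5.38 and 6.98 in OSVZ, 4.29, 4.85 and 4.66 in ISVZ, and 3.76, 4.17 and 4.42 in VZ. Its libraries spanned a narrow range, OSVZ 3 was the highest of all 12, and the small difference of 0.31 ± 0.11 (adjusted p = 0.0326) passed. The GLRB call was lost when any of CP 2, CP 3, OSVZ 2, ISVZ 1 or VZ 1 was left out, with 0.26 (adjusted p = 0.130) without CP 3 as the smallest difference, and with FPKM as deposited (0.26, adjusted p = 0.107). GLRA2 made up 78.1 ± 4.71% of the summed glycine subunit FPKM in CP, 64.6 ± 4.57% in OSVZ, 35.8 ± 8.71% in ISVZ and 20.7 ± 1.71% in VZ.

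AMPA receptors carry fast excitatory transmission and are assembled from the products of GRIA1 to GRIA4. GRIA1 was the most abundant of the 34 tested subunits, at 81.1, 98 and 91.4 scaled FPKM in the CP libraries, 87.6, 86.2 and 69.8 in OSVZ, 89.1, 129 and 72 in ISVZ, and 76.4, 69.2 and 80.7 in VZ. CP overlapped OSVZ and ISVZ and lay just above VZ, and the difference of 0.11 ± 0.15 (adjusted p = 0.547) did not pass. GRIA2, the subunit that makes AMPA receptors nearly impermeable to calcium, was at 33.8, 43.4 and 47.1 scaled FPKM in the CP libraries, 22.7, 22.5 and 30.7 in OSVZ, 20.3, 14.9 and 12.3 in ISVZ, and 9.67, 5.47 and 8.37 in VZ. The layers did not overlap, with CP highest and VZ lowest, and the difference was 1.44 ± 0.18 (adjusted p = 5.89e-05).

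GRIA3 was at 25.5, 18 and 20.3 scaled FPKM in the CP libraries, 9.93, 10.002 and 10.4 in OSVZ, 8.99, 6.08 and 6.06 in ISVZ, and 10.2, 5.72 and 6.89 in VZ. Every CP library lay above every germinal library, OSVZ lay above ISVZ while VZ overlapped both, and the difference was 1.28 ± 0.16 (adjusted p = 5.64e-05). GRIA4 was at 8.33, 10.2 and 10.3 scaled FPKM in the CP libraries, 5.32, 5.45 and 11 in OSVZ, 4.88, 6.17 and 4.73 in ISVZ, and 5.2, 3.64 and 4.78 in VZ. OSVZ 3 exceeded the CP libraries while the other 8 germinal libraries lay below them, and the difference was 0.71 ± 0.19 (adjusted p = 0.00745). As a description, GRIA1 made up 55.5 ± 2.04% of the summed AMPA subunit FPKM in CP, 65.5 ± 7.15% in OSVZ, 76.9 ± 5.26% in ISVZ and 79.3 ± 3.59% in VZ. GRIA2 made up 25.4 ± 2.55% in CP, 20.5 ± 4.1% in OSVZ, 13 ± 3.46% in ISVZ and 8.12 ± 1.52% in VZ.

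**Figure D3:**
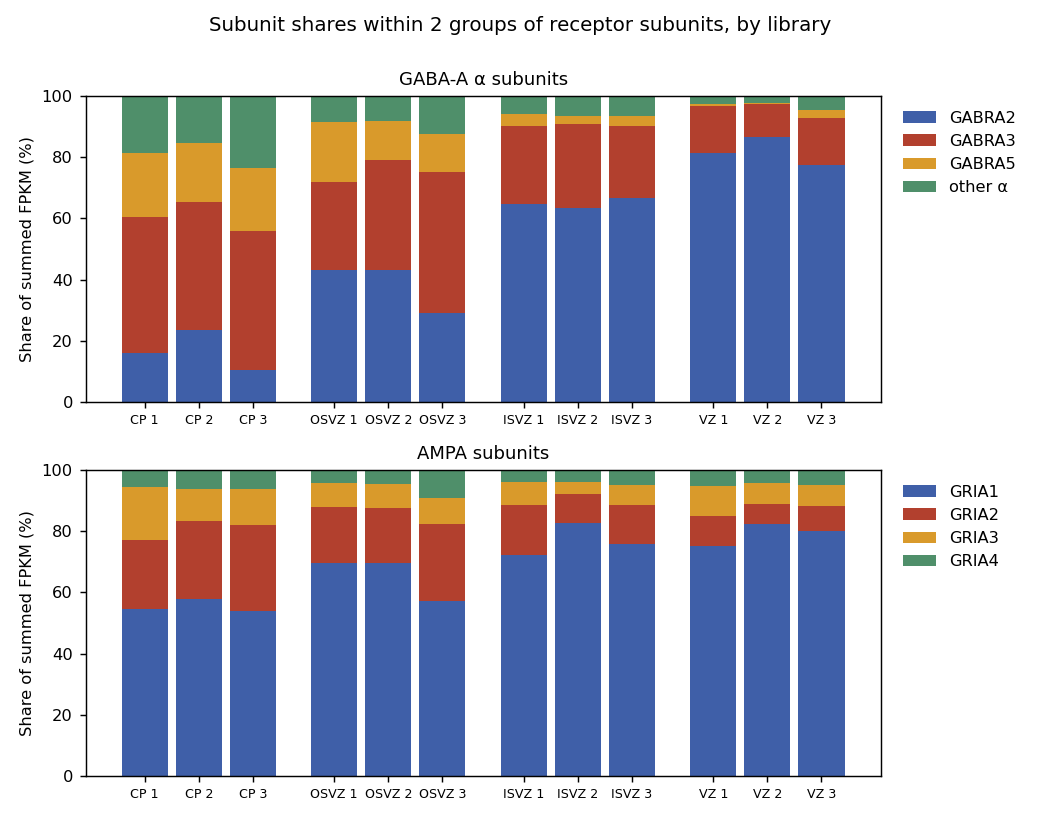
Share of summed scaled FPKM in percent (y axis, 0 to 100) for GABA-A α and AMPA subunits in each of the 12 libraries (x axis, CP on the left to VZ on the right). GABRA2 holds 10.3% to 23.6% of the α sum in the CP libraries and 77.5% to 86.8% in the VZ libraries, and GRIA1 holds 54.1% to 57.8% of the AMPA sum in CP and 75.3% to 82.4% in VZ.

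Kainate receptors, which modulate transmitter release and excitability, showed no called difference: none of the 4 tested subunits passed between CP and the germinal layers, and the fitted differences ran from -0.27 to 0.10. GRIK2, a subunit that can form channels by itself, was at 11.5, 15.1 and 25.3 scaled FPKM in the CP libraries, 13.9, 15.5 and 15.8 in OSVZ, 16.3, 18.3 and 14.5 in ISVZ, and 16.1, 14.5 and 12.9 in VZ, with a difference of 0.10 ± 0.18 (adjusted p = 0.658). All layers overlapped, CP 3 was the highest library, and without it the difference was -0.19 (adjusted p = 0.249). GRIK5, a high-affinity subunit that needs a partner, was at 13.2, 11.1 and 13 scaled FPKM in the CP libraries, 15.8, 14.1 and 17 in OSVZ, 16.8, 12.1 and 10.7 in ISVZ, and 12.8, 13.3 and 14.9 in VZ. CP lay below OSVZ and overlapped ISVZ and VZ, and the difference of -0.17 ± 0.12 (adjusted p = 0.274) did not pass.

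GRIK3 was at 10.7, 3.08 and 3.02 scaled FPKM in the CP libraries, 6.88, 4.4 and 7.77 in OSVZ, 3.74, 8.1 and 7.22 in ISVZ, and 5.41, 5.94 and 5.31 in VZ. CP 1 was well above the other CP libraries, the difference was -0.27 ± 0.31 (adjusted p = 0.494), and without CP 1 it was -0.77 (adjusted p = 0.0204) and passed as lower in CP. GRIK4, the other high-affinity subunit, was at 1.7, 1.57 and 1.62 scaled FPKM in the CP libraries, 2.22, 1.7 and 3.51 in OSVZ, 2.18, 1.25 and 1.48 in ISVZ, and 2.0, 2.34 and 2.28 in VZ. CP lay below VZ and overlapped ISVZ, and the difference of -0.22 ± 0.15 (adjusted p = 0.259) did not pass. The GRIK1 model reached at most 0.589 scaled FPKM, while a numbered copy, GRIK1li1, overlaps it on the chromosome and averaged 2.27 ± 0.116 scaled FPKM in CP, 2.95 ± 0.809 in OSVZ, 1.012 ± 0.533 in ISVZ and 0.586 ± 0.219 in VZ, with a difference of 0.51 ± 0.18 (adjusted p = 0.0297). Reads may have been divided between the models, so the level of GRIK1 itself is uncertain.

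NMDA receptors need glutamate, glycine and depolarisation to open, and all 3 tested subunits were higher in CP than in the mean of the germinal layers (24.0% of all tested genes). GRIN1, the glycine-binding subunit that every NMDA receptor contains, was at 16.6, 12.2 and 10.8 scaled FPKM in the CP libraries, 7.36, 4.19 and 14.8 in OSVZ, 3.2, 2.96 and 2.38 in ISVZ, and 1.8, 0.95 and 1.76 in VZ. OSVZ 3 lay within the CP range, the other 8 germinal libraries lay below it, and the difference was 1.68 ± 0.27 (adjusted p = 0.000311). The GRIN1 model spans only 4380 bases (chromosome 2, 95459838 to 95464217), and a numbered copy, GRIN1li1, lies on an unplaced contig at a higher level of 29.3 ± 4.81 scaled FPKM in CP, 22.5 ± 11.4 in OSVZ, 7.62 ± 2.03 in ISVZ and 5.85 ± 1.76 in VZ. The copy was also higher in CP (1.48 ± 0.25, adjusted p = 0.000443), and the sum of both models averaged 42.5 ± 7.25 in CP, 31.3 ± 16.7 in OSVZ, 10.5 ± 2.32 in ISVZ and 7.36 ± 1.78 in VZ. The level of GRIN1 is therefore uncertain, while both models have their highest mean in CP and their lowest in VZ.

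GRIN2B, the glutamate-binding subunit that prevails before birth in rodents, was at 4.6, 2.85 and 2.7 scaled FPKM in the CP libraries, 1.69, 0.784 and 1.27 in OSVZ, 0.705, 0.244 and 0.148 in ISVZ, and 0.175, 0.113 and 0.398 in VZ. Every CP library exceeded every OSVZ library and every OSVZ library exceeded every ISVZ and VZ library, with a difference of 1.48 ± 0.18 (adjusted p = 4.88e-05). GRIN3A, which lowers the calcium permeability of the receptor, was at 8.22, 5.79 and 12.4 scaled FPKM in the CP libraries, 3.87, 3.31 and 10.9 in OSVZ, 3.08, 2.48 and 1.67 in ISVZ, and 0.678, 0.627 and 0.736 in VZ. OSVZ 3 lay among the CP libraries, VZ was lowest, and the difference was 1.52 ± 0.29 (adjusted p = 0.00102).

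Delta receptors bind cerebellins, secreted proteins that link them to the presynaptic side, and GRID1 was modestly higher in CP. It was at 5.76, 4.93 and 4.16 scaled FPKM in the CP libraries, 4.07, 2.94 and 6.68 in OSVZ, 3.38, 2.39 and 1.74 in ISVZ, and 0.958, 1.4 and 1.31 in VZ. OSVZ 3 was above all CP libraries, VZ was lowest, and the difference was 0.78 ± 0.19 (adjusted p = 0.00576).

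**Figure D4:**
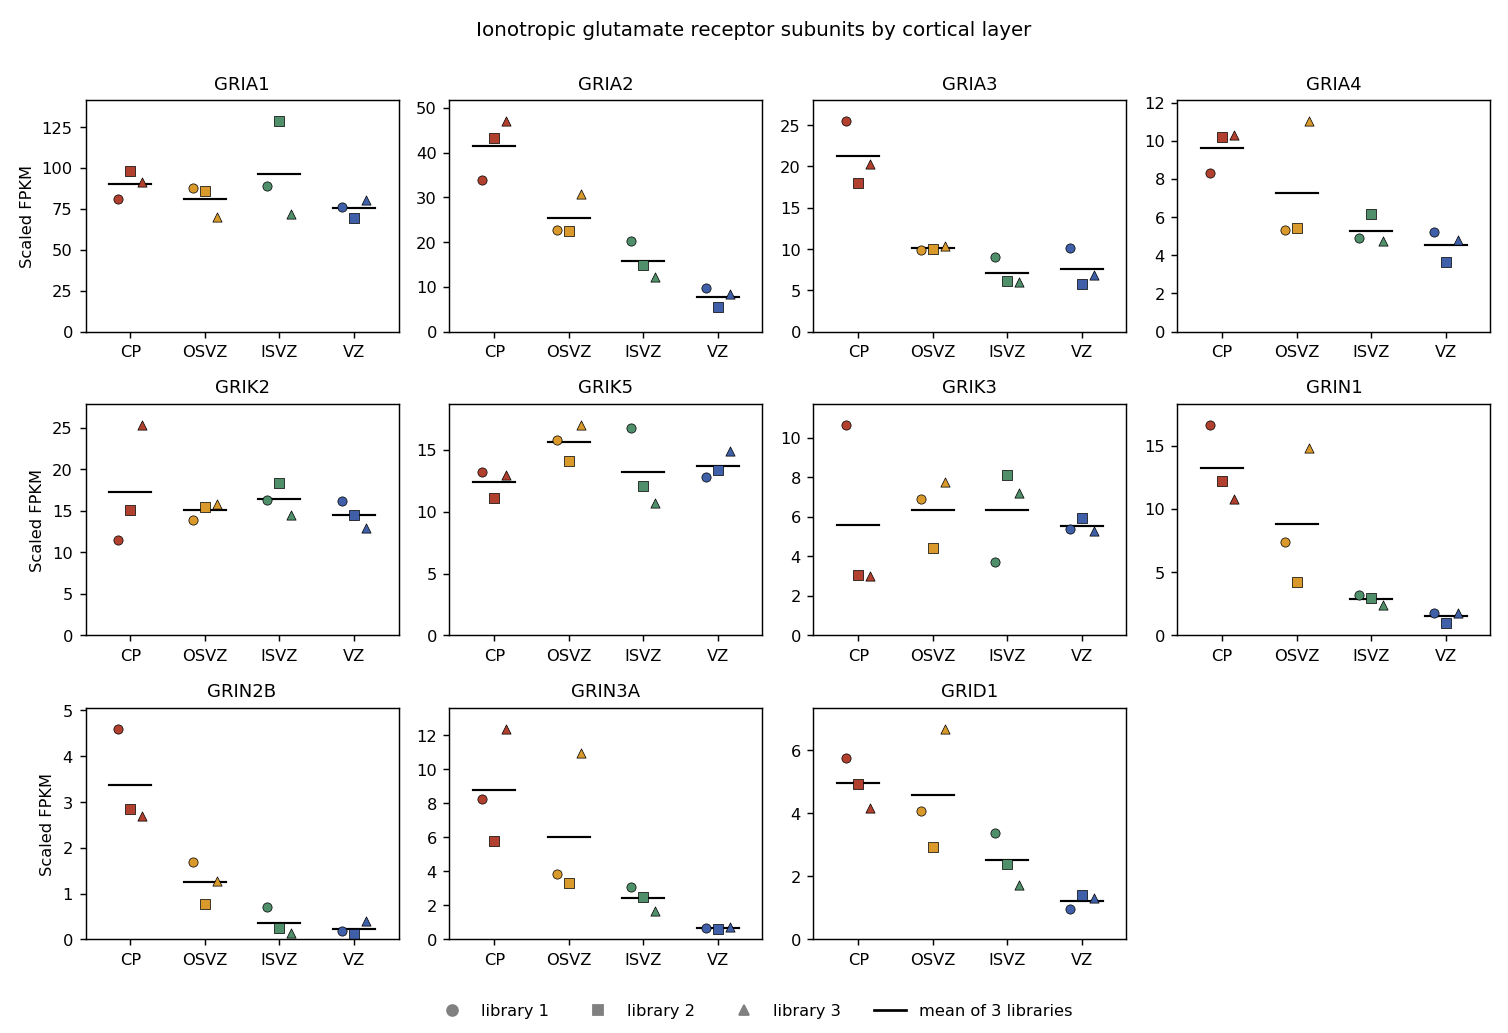
Scaled FPKM (y axis, linear from 0, a scale of its own in each panel) of 11 glutamate receptor subunits in the 12 libraries, by layer (x axis). Each symbol is 1 library, its shape gives the library number, and the bar is the mean of 3 libraries. GRIA2 steps down over the 4 layers, all layers overlap for GRIK2, and CP 1 stands high for GRIK3 at 10.7.

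Nicotinic receptors respond to acetylcholine, and 4 of the 5 tested subunits were higher in CP than in the mean of the germinal layers (24.0% of all tested genes). None of the 5 passed between CP and OSVZ. CHRNA4 and CHRNE had their highest mean in OSVZ, though not without OSVZ 3. CHRNA4 and CHRNB2 form the main heteromeric nicotinic receptor of the brain. CHRNB2 was at 11.7, 12.2 and 11.4 scaled FPKM in the CP libraries, 10.5, 8.75 and 11 in OSVZ, 7.34, 7.62 and 4.88 in ISVZ, and 4.89, 4.19 and 3.1 in VZ. CP lay just above OSVZ and OSVZ above ISVZ, ISVZ and VZ overlapped by a narrow margin, and the difference was 0.78 ± 0.14 (adjusted p = 0.000662). CHRNA4 was at 9.1, 6.49 and 6.46 scaled FPKM in the CP libraries, 5.83, 4.77 and 12.5 in OSVZ, 3.03, 2.83 and 2.55 in ISVZ, and 2.07, 1.87 and 2.96 in VZ. OSVZ 3 was the highest library of all, the other 8 germinal libraries lay below CP, and the difference was 0.83 ± 0.22 (adjusted p = 0.00826). Without CP 1 the CHRNA4 difference was 0.69 (adjusted p = 0.0507).

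CHRNA7, which forms channels by itself, was at 3.41, 3.36 and 3.22 scaled FPKM in the CP libraries, 2.77, 2.0 and 3.51 in OSVZ, 1.92, 1.56 and 1.2 in ISVZ, and 0.725, 0.748 and 0.935 in VZ. CP and OSVZ overlapped through OSVZ 3, ISVZ and VZ lay below them in that order, and the difference was 0.75 ± 0.13 (adjusted p = 0.000584). CHRNE and CHRNB1 are best known as subunits of the muscle receptor. CHRNE averaged 1.44 ± 0.677 scaled FPKM in CP, 1.52 ± 0.633 in OSVZ, 0.513 ± 0.0924 in ISVZ and 0.292 ± 0.0335 in VZ, and its difference of 0.49 ± 0.19 (adjusted p = 0.0431) was lost when any library other than CP 3 or OSVZ 3 was left out (0.33, adjusted p = 0.225, without CP 2, and 0.74, adjusted p = 0.00582, without CP 3). The CHRNE call was also lost with the replicate number as a block (adjusted p = 0.0579), with FPKM as deposited (0.0586), with equal totals (0.0518) and with no filter (0.114). CHRNB1 was at 2.49, 1.93 and 1.94 scaled FPKM in the CP libraries, 2.43, 1.93 and 2.65 in OSVZ, 2.92, 2.0 and 1.67 in ISVZ, and 2.65, 4.21 and 2.2 in VZ and did not pass (-0.15 ± 0.16, adjusted p = 0.453). Entries of other genes overlap CHRNB2 (ADAR, mean 14.4 scaled FPKM), CHRNE (MINK1, 7.11) and CHRNB1 (FGF11, 11.5), so reads could have been assigned between them.

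Of the 3 tested subunits of the ATP-gated P2X receptors, 2 were lower in CP than in the mean of the germinal layers (28.7% of all tested genes). P2RX4 was at 1.27, 1.51 and 1.73 scaled FPKM in the CP libraries, 3.61, 3.33 and 3.65 in OSVZ, 5.09, 2.73 and 3.66 in ISVZ, and 7.14, 8.64 and 8.35 in VZ. Every CP library lay below every germinal library and every VZ library lay above all others, with a difference of -1.21 ± 0.13 (adjusted p = 2.09e-05). P2RX1, known from platelets and smooth muscle, was at 0.205, 0.272 and 0.182 scaled FPKM in the CP libraries, 1.86, 0.889 and 0.905 in OSVZ, 1.77, 1.63 and 1.22 in ISVZ, and 1.42, 1.12 and 0.924 in VZ. CP lay below every germinal library, the germinal layers overlapped, and the difference was -0.90 ± 0.15 (adjusted p = 0.000403). No CP library reached 1 scaled FPKM, so P2RX1 passed the filter through the germinal layers alone. P2RX5 was at 1.17, 1.12 and 1.4 scaled FPKM in the CP libraries, 1.26, 1.21 and 1.26 in OSVZ, 1.1, 1.29 and 1.14 in ISVZ, and 1.0, 1.06 and 1.02 in VZ and did not pass (0.05 ± 0.09, adjusted p = 0.666).

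P2RX4 is abundant in microglia, the brain's macrophages, in rodents, and markers of these cells also differed between layers. The summed level of the 9 microglia markers found, of 10 sought, was 3.18 to 6.41 scaled FPKM in CP, 28.4 to 35.2 in OSVZ, 10.8 to 24.2 in ISVZ and 25.9 to 33.9 in VZ, and all 8 tested markers were lower in CP. Between OSVZ and VZ the microglia sums overlapped, while P2RX4 in VZ was above every OSVZ library. The part of these cells in the P2RX values was not tested. P2RX4 overlaps CAMKK2 and P2RX1 overlaps CAMKK1, and both partner genes had their highest mean in CP (13.7 and 1.39 scaled FPKM) and their lowest in VZ (7.89 and 0.507). P2RX5, with a mean of 1.17 scaled FPKM over all libraries, overlaps TAX1BP3 (79.1) and CTNS (3.91). Reads could have been assigned between them, so the level of P2RX5 is uncertain.

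**Figure D5:**
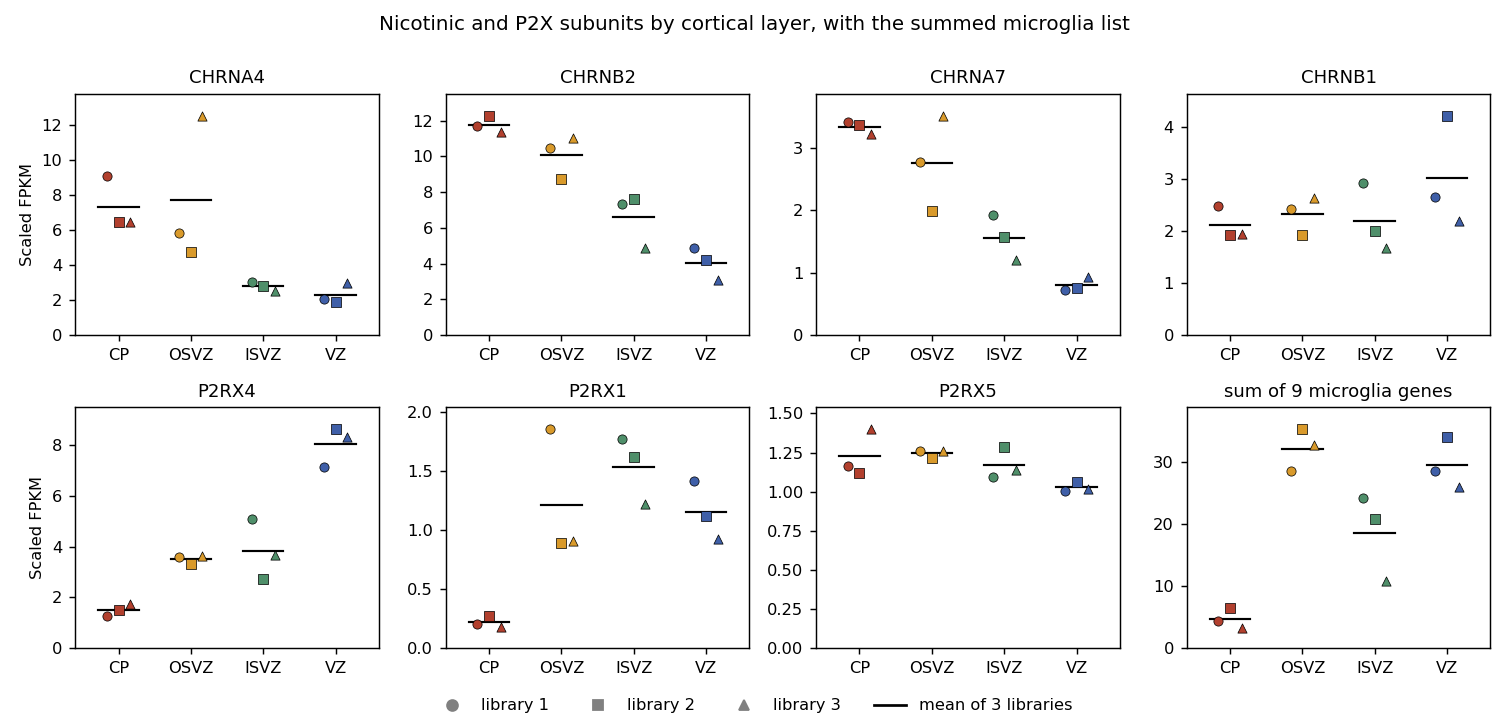
Scaled FPKM (y axis, linear from 0, a scale of its own in each panel) of 4 nicotinic and 3 P2X subunits and of the sum of 9 microglia markers in the 12 libraries, by layer (x axis). Each symbol is 1 library, its shape gives the library number, and the bar is the mean of 3 libraries. P2RX4 is lowest in CP at 1.27 to 1.73 and highest in VZ at 7.14 to 8.64, and the microglia sum is lowest in CP.

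The contrasts of single layers share libraries with the one above, so each is given with its own values and they do not support each other. Between CP and OSVZ, 12 of the 34 subunits differed, 10 higher and 2 lower in CP, where 31.0% of all tested genes differed (13.7% higher, 17.3% lower). Among the 10 are GABRB2, GABRA5, GABRA3, GLRA2, GRIA2, GRIA3 and GRIN2B, and the 2 are P2RX4 and P2RX1. The GABRA5 difference was 1.02 ± 0.25 (adjusted p = 0.00947), that of GABRB2 was 1.05 ± 0.27 (adjusted p = 0.0117) and that of GABRA3 was 0.89 ± 0.31 (adjusted p = 0.0483). The GABRA3 call was lost when any library other than OSVZ 3 was left out (adjusted p of up to 0.173), and also under each other scaling and pseudocount tried, with no filter and with no trend (0.0503 to 0.17). The GABRA5 call was lost with a pseudocount of 0.1 (adjusted p = 0.0935), as was that of GRIN2B (0.0528). Those of GRIA2 (without CP 2, CP 3, OSVZ 1 or OSVZ 2, up to 0.112, and with equal totals, 0.0650, or quantile normalisation, 0.0902), GLRA2 (without CP 1, CP 3, OSVZ 1 or OSVZ 2, up to 0.0584) and GABRB2 (without OSVZ 1, 0.0508) were also lost in places. No nicotinic or delta subunit passed here, and CHRNA4 had a difference of 0.03 ± 0.27 (adjusted p = 0.951). Without OSVZ 3 all 12 remained and 16 subunits passed.

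OSVZ also stood above VZ, the layer where radial glia line the ventricle. Here 16 of the 34 subunits differed, 15 higher and 1 lower in OSVZ, where 27.9% of all tested genes differed (11.7% higher, 16.2% lower). The median difference was 0.53 over the subunits and -0.02 over all tested genes. Among the 15 higher are GABRA3, GABRA5, GLRA2, GRIA2, GRIN1, GRIN2B, GRIN3A, GRID1, CHRNA4, CHRNA7, CHRNB2 and CHRNE. GLRA2 had the largest difference at 2.59 ± 0.24 (adjusted p = 0.000177), followed by GABRA5 at 2.41 ± 0.25 (adjusted p = 0.000188). P2RX4 was lower in OSVZ, at -0.99 ± 0.16 (adjusted p = 0.00134). All 16 calls remained without OSVZ 3, and GRIN2B was lost without OSVZ 1 (adjusted p = 0.0597) or VZ 2 (0.0582) and with no filter (0.0517).

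Few subunits were called between neighbouring germinal layers. Between OSVZ and ISVZ 3 subunits passed, all higher in OSVZ, where 0.603% of all tested genes differed (0.482% higher, 0.121% lower). Among them are GABRA5 (1.91 ± 0.25, adjusted p = 0.0223) and GLRA2 (1.79 ± 0.24, adjusted p = 0.0237). All 3 were lost without OSVZ 3, with adjusted p-values of 0.0547 for GABRA5 and 0.0571 for GLRA2, and no subunit passed without OSVZ 1, ISVZ 2 or ISVZ 3 either, while 6 passed without OSVZ 2. Between ISVZ and VZ 3 passed, where 8.72% of all tested genes differed (1.54% higher, 7.18% lower). Among them, GRIA2 (0.93 ± 0.22, adjusted p = 0.0257) was higher in ISVZ and P2RX4 (-0.93 ± 0.16, adjusted p = 0.00634) was lower. Without OSVZ 3 these 3 remained and 7 passed, 5 passed without ISVZ 3, and 1 passed without each of ISVZ 2, VZ 2 and VZ 3.

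Any difference among the 4 layers was called for 23 of the 34 subunits by the F test, beside 51.8% of all tested genes. The mean was highest in CP for 19 subunits, in OSVZ for 8, in ISVZ for 4 and in VZ for 3. Without OSVZ 3 the counts were 22, 2, 5 and 5, and the 2 that then had their highest mean in OSVZ are GRIK5 and P2RX5. GABRA2, CHRNB1 and P2RX4 had their highest mean in VZ with and without OSVZ 3. For 15 subunits the means ran from highest to lowest in the order CP, OSVZ, ISVZ, VZ, and for 18 without OSVZ 3. The shares of all tested genes with these patterns were not computed, so the counts describe the subunits only. The filter bears on such counts: 5 subunits, among them GABRG3, GRIN2B and CHRNE, reached 1 scaled FPKM only in CP and OSVZ libraries. GABRD reached it only in ISVZ and VZ, and GABRB1 and P2RX1 only in the germinal layers. GABRA5, GRIN3A and CHRNA7 reached it in every layer but VZ, and 23 subunits reached it in all 4 layers.

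Of the 30 subunit genes under the filter, 18 reached 0.3 scaled FPKM in some library. GRIN2A, which joins NMDA receptors later in rodent development, was at 0.829, 0.971 and 2.11 scaled FPKM in the CP libraries, 0.201, 0.202 and 0.328 in OSVZ, 0.115, 0.0153 and 0.0377 in ISVZ, and 0.0316, 0.00785 and 0.0317 in VZ. CP lay above all germinal libraries at low levels. GRIN2C, a subunit known from the cerebellum and astrocytes, was at 0.0113, 0.0427 and 0.0233 scaled FPKM in the CP libraries, 0.654, 0.725 and 0.672 in OSVZ, 0.488, 0.244 and 0.255 in ISVZ, and 0.406, 0.692 and 0.566 in VZ, with CP below all other libraries. Of the GABA-A genes, GABRA4 reached 1.1 and GABRA6 1.33 scaled FPKM, both in CP, GABRR1 reached 0.845 and GABRP 0.724 in VZ, GABRQ reached 0.425 in CP, and GABRE reached 0.33 and GABRR1liN 0.524 in OSVZ. The GABRQ model spans only 744 bases and overlaps TBR1 and PSMD14. A numbered copy, GABRQli1, averaged 0.107 in CP and reached 2.55 in OSVZ 3, so the level and layer of GABRQ are uncertain.

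Of the other low genes, the glycine receptor subunit GLRA3 reached 1.13 in OSVZ and GLRA1 reached 0.601 in VZ. The GLRA3 model spans only 2212 bases. Its numbered copy, GLRA3li1, had its highest mean in CP (0.353, beside 0.266 in OSVZ), so the level and layer of GLRA3 are uncertain. GRIK1 reached 0.589 in VZ. The nicotinic genes CHRNB4, CHRNA3 and CHRNA10 reached 0.689, 0.622 and 0.315 in OSVZ, and CHRNB3 reached 0.622 in ISVZ. P2RX6 and P2RX7, a receptor of microglia, reached 0.472 and 0.316 in VZ. The other 12 stayed under 0.3 in every library, and CHRNA2 is among those listed at 0 in all 12 libraries.

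The genes that place, assist and supply these receptors were followed through 5 lists. Of 39 tested receptor partners and scaffolds, 27 were higher in CP than in the germinal layers and 1 was lower, where 24.0% of all tested genes were higher and 28.7% lower, with a median difference of 0.74 beside -0.05 over all tested genes. The 1 lower gene, GABARAP, which carries GABA-A receptors to the cell surface, was named after its value was seen (-0.20 ± 0.08, adjusted p = 0.046), and that call was lost when any library other than CP 2, OSVZ 1 or ISVZ 1 was left out. The synaptic scaffold DLG2 averaged 57.3 ± 9.14 scaled FPKM in CP, 25.7 ± 1.65 in OSVZ, 17.8 ± 2.69 in ISVZ and 8.89 ± 2.29 in VZ (1.77 ± 0.15, adjusted p = 2.88e-06). HOMER1, which ties metabotropic glutamate receptors to the postsynaptic density, averaged 19.9 ± 3.42 scaled FPKM in CP, 8.53 ± 0.639 in OSVZ, 5.8 ± 1.15 in ISVZ and 4.54 ± 0.429 in VZ (1.55 ± 0.12, adjusted p = 1.78e-06). RIC3, a chaperone of nicotinic receptors, differed by 1.49 ± 0.14 (adjusted p = 7.58e-06), and CNIH3, an AMPA receptor auxiliary subunit, by 1.44 ± 0.21 (adjusted p = 0.000187). NLGN3 (0.01 ± 0.14, adjusted p = 0.958) and CLPTM1 (-0.05 ± 0.13, adjusted p = 0.786) did not pass.

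Of 12 tested metabotropic receptors of the same transmitters, which signal through G proteins, 9 were higher in CP and 1 was lower (24.0% and 28.7% of all tested genes), with a median of 1.58. GRM5 averaged 20.8 ± 2.07 scaled FPKM in CP, 7.71 ± 4.44 in OSVZ, 2.12 ± 0.475 in ISVZ and 0.964 ± 0.329 in VZ (2.58 ± 0.24, adjusted p = 5.74e-06). GRM7 (2.36 ± 0.25, adjusted p = 1.4e-05), GRM3 (2.05 ± 0.24, adjusted p = 2.99e-05) and the GABA-B receptor subunit GABBR2 (1.96 ± 0.20, adjusted p = 1.08e-05) were also higher in CP. The 1 lower gene, P2RY12, is a microglia marker, and it was named after its value was seen. GRM8 (0.94 ± 0.37, adjusted p = 0.0537) did not pass, although it did without OSVZ 3 (1.17, adjusted p = 0.000225) and with the replicate number as a block (adjusted p = 0.0277).

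Of 25 tested genes that make, load and take up transmitters, 6 were higher and 8 lower in CP, with a median of -0.24. These counts are near the 24.0% higher and 28.7% lower among all tested genes. SLC17A7, a vesicular glutamate transporter of cortical excitatory neurons, averaged 23.6 ± 12.1 scaled FPKM in CP, 11.6 ± 5.76 in OSVZ, 3.84 ± 4.35 in ISVZ and 1.45 ± 0.989 in VZ (2.28 ± 0.48, adjusted p = 0.00192), and SLC1A1, a neuronal glutamate transporter, differed by 2.01 ± 0.13 (adjusted p = 4.85e-07). SLC1A3, the glutamate transporter of radial glia and astrocytes, was lower in CP, with 13 ± 5.91 scaled FPKM in CP, 63.4 ± 7.32 in OSVZ, 91.6 ± 20.4 in ISVZ and 268 ± 11 in VZ (-3.16 ± 0.23, adjusted p = 9.77e-07). GAD2, a GABA-synthesising enzyme of interneurons, was lower as well (-2.35 ± 0.51, adjusted p = 0.00252). Beside it, the summed level of 14 interneuron markers, GAD2 among them, was 62.6 to 186 scaled FPKM in CP, 145 to 380.4 in OSVZ, 240.4 to 709 in ISVZ and 380.0 to 522 in VZ. Of the 14, 9 were lower in CP, GAD2 included. The part of these cells in the GAD2 value was not tested. SLC38A2 (-0.03 ± 0.11, adjusted p = 0.836) and SHMT2 (-0.15 ± 0.10, adjusted p = 0.226) did not pass.

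Chloride transporters set whether GABA and glycine depolarise a cell. Of 14 tested chloride transporters, their kinases and carbonic anhydrases, 7 were higher and 3 lower in CP (24.0% and 28.7% of all tested genes), with a median of 0.25. The count of 7 became 5 with FPKM as deposited, equal totals or no filter, and without some single libraries. It became 4 without CP 3 and with a filter of 5 scaled FPKM, where fewer genes are tested. SLC12A5, the potassium-chloride cotransporter that exports chloride from neurons, was at 7.02, 5.12 and 5.05 scaled FPKM in the CP libraries, 4.06, 3.08 and 16.7 in OSVZ, 2.87, 1.54 and 1.11 in ISVZ, and 1.09, 0.766 and 0.928 in VZ. OSVZ 3 was more than 2 times any other library, and the difference was 0.99 ± 0.36 (adjusted p = 0.0372). That call was lost when any of CP 1, CP 2, CP 3, OSVZ 1, ISVZ 2, ISVZ 3, VZ 2 or VZ 3 was left out (adjusted p of up to 0.132). SLC12A2, which imports chloride, was named after its values were seen, and was at 3.8, 1.97 and 2.87 scaled FPKM in the CP libraries, 4.22, 5.11 and 3.69 in OSVZ, 6.83, 4.86 and 3.95 in ISVZ, and 6.56, 10.5 and 6.73 in VZ. CP 1 lay just above OSVZ 3, the CP libraries otherwise lay below every germinal library, and the difference was -0.79 ± 0.19 (adjusted p = 0.00427).

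The remaining chloride-handling genes named are SLC4A10 (1.04 ± 0.26, adjusted p = 0.00523) and the channel CLCN2 (0.83 ± 0.14, adjusted p = 0.00040), both higher in CP, and SLC12A7, another chloride exporter, which was lower (-1.18 ± 0.16, adjusted p = 9.74e-05). The kinases STK39 (-0.02 ± 0.23, adjusted p = 0.943) and OXSR1 (-0.13 ± 0.09, adjusted p = 0.27), which regulate these transporters, did not pass.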

How the data were processed

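FPKM values per gene with confidence bounds were used from 12 libraries. The authors deposited 1 FPKM table per library, with the column names of Cufflinks per the file headers, and the submitters' processing notes name HISAT2 and Cufflinks. The genome build is not given in the sources used here, nor are tool versions, the annotation or the handling of strand. Entries with the same gene ID (360 IDs) were added up, and 4 IDs with a failed status were dropped. Libraries were scaled by median ratios over 10200 genes expressed at 1 FPKM in each of them (factors of 0.947 to 1.06), and no 2 libraries held identical values. Genes reaching 1 scaled FPKM in 3 or more libraries were fitted with limma 3.58.1 in R 4.3.3 on log2 of scaled FPKM plus 1 (4 layer means, intensity trend, 8 residual degrees of freedom, two-sided tests, Benjamini-Hochberg adjustment over 14101 genes). The code was tested on simulated data. Read counts were not used, so depth in reads is unknown. A relative depth computed from the deposited bounds was 1.48 in OSVZ 3 and 0.750 to 1.18 in the others.

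The members and all gene lists were chosen with earlier results of these data known. Values in every library are given for the up to 4 most abundant tested subunits of each family and the up to 3 with the largest called difference between CP and the germinal layers, with some further subunits added. A few of the tested genes are counted but not reported here one by one. From each pathway list the text names up to 4 called genes with the largest difference and up to 2 others with the smallest. Alternatives were other scalings, pseudocounts and filters, no trend, 1 entry per ID, numbered copies summed with their member (chosen after seeing the data), the replicate number as a block, and each library left out in turn. No sequences are given, because the reference used here held gene names only.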

Additional observations from a re-analysis of the deposited data

How the results depend on the processing

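Of the 23 calls between CP and the germinal layers, 18 held in every one of the 23 alternatives that tested them, and the 5 exceptions include GABRA2, GLRB, CHRNA4 and CHRNE. The counts of called subunits moved by more than 1.5 times only in 2 comparisons. Between ISVZ and VZ the count of 3 became 7 with quantile normalisation, 6 with a pseudocount of 0.1, 1 with no filter and 5 with the replicate block. Between OSVZ and ISVZ it became 1 with a pseudocount of 0.1 and 0 with no filter. Leaving out each library in turn gave 19 to 23 calls among the 4 layers, 20 to 23 for CP against the germinal layers, 8 to 16 for CP against OSVZ, 0 to 6 for OSVZ against ISVZ, 1 to 7 for ISVZ against VZ and 15 to 17 for OSVZ against VZ. The cause of these changes was not tested. With no filter, GLRB had an adjusted p of 0.0672, SLC12A5 of 0.133 and, between CP and OSVZ, GABRB2 of 0.0546, GLRA2 of 0.0617 and GRIA2 of 0.129. GLRB was also lost with FPKM as deposited (0.107) and equal totals (0.0744), and GABRG3 passed with a pseudocount of 0.1 (1.64, adjusted p = 0.0387). Differences that did not pass and changed sign were those of GRIK2 (-0.19 to 0.35 over the libraries left out), NLGN3 (-0.050 to 0.065, and -0.048 with FPKM as deposited, -0.026 with equal totals and -0.032 with quantile normalisation), CLPTM1 (-0.089 to 0.016), SLC38A2 (-0.077 to 0.021) and STK39 (-0.22 to 0.30, and 0.084 with quantile normalisation).

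Replicate numbers are shared between layers. Libraries with the same number had correlated deviations (r of 0.0629 to 0.425 between layers, mean 0.218). Those with different numbers had r of -0.363 to 0.175 (mean -0.109). Deviations were taken from the mean of the 3 libraries of a layer. A positive r at the same number therefore pulls the r of different numbers below 0, and these means are not separate observations. Not every same-number pair exceeded 0.1 and the labels do not say what the number marks. The main fit therefore did not treat them as paired, and a fit with the number as a block is given as an alternative. In 34 of 36 comparisons a library correlated best with its own number. With the replicate block the counts were 23 among the 4 layers, 22 for CP against the germinal layers, where the call that ended is CHRNE, 12 for CP against OSVZ, 3 for OSVZ against ISVZ, 5 for ISVZ against VZ and 18 for OSVZ against VZ.

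The precision of FPKM for low subunits limits what can be seen: the median half-width of the bounds of GABRG3 was 63.5% of its value. Of the 34 tested subunits, 29 are overlapped by another annotated entry and 9 by one at 0.1 or more of their own level (CHRNB1, CHRNB2, CHRNE, GABRB1, GRIK4, GRIK5, P2RX1, P2RX4 and P2RX5). With 3 libraries a layer and no animal named, the spread between animals is not known.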

Other observations

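Of 5 tested ligand-gated channel genes that the symbol pattern does not cover, 2 were higher and 2 lower in CP, where 24.0% of all tested genes were higher and 28.7% lower. HTR3A, the serotonin-gated channel subunit expressed by a class of cortical interneurons, was at 0.070, 0.0353 and 0.11 scaled FPKM in the CP libraries, 1.4, 1.04 and 0.418 in OSVZ, 2.12, 2.8 and 1.54 in ISVZ, and 3.77, 3.99 and 3.19 in VZ. Every CP library was near 0 and below every germinal library, and the difference was -1.50 ± 0.17 (adjusted p = 2.29e-05) with limma. ZACN, a zinc-activated channel, was also lower in CP (-0.95 ± 0.18, adjusted p = 0.00113). ITPR1, the inositol trisphosphate receptor that releases calcium inside cells, averaged 11.5 ± 5.76 scaled FPKM in CP, 1.47 ± 0.245 in OSVZ, 0.487 ± 0.0933 in ISVZ and 1.33 ± 0.919 in VZ (2.53 ± 0.26, adjusted p = 1.09e-05), and RYR2, another intracellular calcium channel, differed by 0.82 ± 0.18 (adjusted p = 0.00271). The acid-sensing channel ASIC1 did not pass (0.17 ± 0.10, adjusted p = 0.184).

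Summed over all subunits of a family, GABA-A transcripts averaged 189 ± 20.8 scaled FPKM in CP, 97.5 ± 48.1 in OSVZ, 53.4 ± 7.83 in ISVZ and 46.8 ± 4.37 in VZ, and NMDA transcripts 26.7 ± 4.34 scaled FPKM in CP, 17.1 ± 9.7 in OSVZ, 6.01 ± 1.55 in ISVZ and 3.01 ± 0.584 in VZ. Kainate transcripts averaged 37 ± 5.97 scaled FPKM in CP, 39.5 ± 4.26 in OSVZ, 37.7 ± 3.22 in ISVZ and 36.2 ± 0.798 in VZ, and P2X transcripts 3.45 ± 0.312 scaled FPKM in CP, 6.41 ± 0.747 in OSVZ, 6.83 ± 1.22 in ISVZ and 10.8 ± 0.876 in VZ (SD, n = 3 each). In OSVZ 1, OSVZ 2 and OSVZ 3 the GABA-A sum was 75.8, 64.1 and 152.6 scaled FPKM. The NMDA sum in the same libraries was 13.8, 9.45 and 27.99 scaled FPKM. OSVZ 3 therefore raised both OSVZ means, and the means without it were not computed. Numbered copies are left out of the sums, among them GRIN1li1, which averaged 29.3 ± 4.81 scaled FPKM in CP. These sums are a description with no test.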
